A study of Mus musculus with 4 samples.

Results

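The genes of the connective tissue collagens were examined in lists of H3K27ac peaks from fetal mouse limbs and trunks. The 10 members were Col1a1, Col1a2, Col3a1, Col5a1, Col5a2, Col6a1, Col6a2, Col6a3, Col12a1 and Col14a1. They were chosen by what their proteins do, with earlier results of these data known. They are 10 of the 21581 protein-coding genes of the GRCm39 annotation. Every peak interval inside a member's body or within 100 kb of its start site was taken. It was called a promoter interval where it overlapped the stretch from 2 kb before to 500 bp after an annotated start site, and distal where it lay outside the promoter window of every gene. The windows of Col3a1 and Col5a2 overlapped, as did those of Col6a1 and Col6a2, so the 10 windows made 8 separate loci that together spanned 2.08 Mb. They held 93 of the 40899 intervals of limb EGFP+, 121 of the 34360 of limb EGFP-, 89 of the 36231 of trunk EGFP+ and 96 of the 30716 of trunk EGFP- cells.

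Collagen types I and III build the striated fibrils of tendon, dermis, fascia and bone, and type V sits inside those fibrils and starts their assembly. Type VI forms beaded filaments around cells, and types XII and XIV bind to the surface of fibrils. Fibroblasts, tendon cells, perichondrium and bone-forming cells make these chains, though not they alone. The fibrils of cartilage are built from types II, IX and XI. Acetylation of lysine 27 on histone H3 (H3K27ac) marks the nucleosomes that flank active promoters and enhancers, so its peaks show where the regulatory DNA of a gene is in use, without measuring its transcripts.

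The fetuses were at E14.5 and carried, on both copies of Col2a1, a sensor placed upstream of its start site that joined a minimal β-globin promoter to EGFP. They came from 1 mESC clone of male G4 cells through tetraploid aggregation, and their tissue was pooled. Limbs and trunks (neck to tail, internal organs removed) were sorted into EGFP+ cells, largely chondrocytes, and EGFP- cells, which hold all other cells of the piece, such as muscle, connective tissue and epithelium. Each of the 4 populations (limb EGFP+, limb EGFP-, trunk EGFP+, trunk EGFP-) was represented by 1 ChIP-seq library, so no comparison between populations could be tested. All intervals given here cover counting error only. The limb libraries ran on another lane than the trunk libraries, and the effect of the lane and that of the tissue cannot be told apart.

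Chondrocyte promoters separated the fractions as the labels say. All 8 chondrocyte markers examined had a promoter peak in each EGFP+ list, against 2 in limb EGFP- cells and 1 in trunk EGFP- cells. Dcn and Dpt, which mark fibroblasts, had promoter peaks in both EGFP- lists and in neither EGFP+ list, whereas the other 2 connective tissue markers, Kera and Scx, each had 1 promoter peak, in an EGFP+ list. None of the 4 epithelial and none of the 3 blood markers had a promoter peak in any list, and of the 5 muscle markers Myog alone had one, in limb EGFP+ cells. Of the 3 endothelial markers Tek alone had one, in both EGFP- lists. In these pools of cells, a mark carried by fewer cells and a weaker mark in each cell cannot be told apart.

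The number of reads at each summit and the number over the surrounding 10 kb were worked back from the deposited fold and -log10 p (100% of summits in every list). A summit held 7 to 270 reads, with medians of 26 to 29. The genome-wide background, which follows depth, was 1.49, 1.63, 1.60 and 1.83 reads per 200 bp in limb EGFP+, limb EGFP-, trunk EGFP+ and trunk EGFP- cells. Heights below are reads divided by this background and are called depth-scaled. At gene promoters as a whole the EGFP- libraries read lower than the EGFP+ ones on this scale. The median EGFP- to EGFP+ ratio of summit reads was 0.741 over 10699 genes in limbs and 0.843 over 10652 genes in trunks, and that of reads over 10 kb was 0.788 and 0.869, so each ratio of a collagen gene is to be read against these values.

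The sequences just before the start sites differed widely among the members. The 150 bases upstream of the start site are shown for 5 members that span this range, read from GRCm39 on the coding strand, 5′ to 3′. Capitals mark the motifs searched on both strands: TATAAA (bound by TBP), CCAAT (NF-Y), TGANTCA (AP-1), ACAAAG (SOX), GGAATG (TEAD) and TGTGGT (RUNX).
Col1a1 (chr11:94826900-94827049, + strand): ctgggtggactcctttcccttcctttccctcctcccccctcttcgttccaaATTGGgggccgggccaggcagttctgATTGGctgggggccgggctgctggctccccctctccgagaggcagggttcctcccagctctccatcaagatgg
Col3a1 (chr1:45350548-45350697, + strand): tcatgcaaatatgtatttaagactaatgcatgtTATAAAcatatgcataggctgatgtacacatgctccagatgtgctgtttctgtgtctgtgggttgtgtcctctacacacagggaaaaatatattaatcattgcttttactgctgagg
Col5a1 (chr2:27776247-27776396, + strand): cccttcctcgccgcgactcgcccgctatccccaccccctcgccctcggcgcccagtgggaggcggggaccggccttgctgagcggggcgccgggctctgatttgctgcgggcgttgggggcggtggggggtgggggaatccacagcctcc
Col5a2 (chr1:45542443-45542592, - strand): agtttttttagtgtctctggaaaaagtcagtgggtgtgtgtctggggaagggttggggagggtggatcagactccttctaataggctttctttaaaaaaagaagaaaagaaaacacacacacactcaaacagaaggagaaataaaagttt
Col14a1 (chr15:55170990-55171139, + strand): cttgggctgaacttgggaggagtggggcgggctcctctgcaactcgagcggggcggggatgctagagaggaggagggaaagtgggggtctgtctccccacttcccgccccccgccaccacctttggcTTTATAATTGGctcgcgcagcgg
Col1a1 held CCAAT (as ATTGG) at 2 places, with first letters 99 and 73 bases before the start. Col3a1 held TATAAA 117 bases before it, and Col14a1 held TATAAA and CCAAT side by side, 23 and 17 bases before it. No other member held any of the 6 motifs in this stretch, in which Col1a2 was examined but is not printed because it overlaps an exon of another transcript. TATAAA was thus in 2 of 10 members and in 7.27% of all 21581 promoters, and CCAAT in 2 of 10 and in 27.7%. AP-1, SOX, TEAD and RUNX words were in none of the 10, against 3.60%, 9.03%, 6.89% and 7.78% of all promoters. GC content in this stretch ran from 37.3% in Col3a1 and 39.3% in Col5a2 to 76.0% in Col5a1, around a median of 55.3% for all promoters.

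Nearly every member carried H3K27ac at its own promoter in both fractions of both tissues. Col1a1, Col1a2, Col3a1, Col5a1, Col5a2, Col6a1, Col6a2, Col6a3 and Col12a1 had a promoter interval in all 4 lists, as had 47.4% of protein-coding genes. Col14a1, which encodes the fibril-surface collagen XIV, had one in both trunk lists and in neither limb list, a combination seen in 0.301% of genes. Counted per list, 9 of 10 members were marked in each limb list and 10 in each trunk list, where 54.4% (limb EGFP+), 51.6% (limb EGFP-), 52.6% (trunk EGFP+) and 52.7% (trunk EGFP-) of all genes were. Of the 8 cartilage collagens examined beside them, 7 had a promoter peak in each EGFP+ list and 3 in each EGFP- list.

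By the rank of their -log10 p within a list, the promoters were of middling strength among all intervals. Among genes with a promoter peak, their median by -log10 p stood at percentiles of 22.6 (limb EGFP+), 42.9 (limb EGFP-), 17.7 (trunk EGFP+) and 17.7 (trunk EGFP-). The strongest promoter interval of the members stood at a median percentile of 68.7 in limb EGFP+, 79.1 in limb EGFP-, 61.2 in trunk EGFP+ and 55.7 in trunk EGFP- cells, and the medians for all genes with a promoter peak were 85.5, 82.8, 84.3 and 81.1. The fold over local background was low as well, with medians over the members of 4.18, 3.96, 3.90 and 3.38 against 7.12, 6.59, 6.33 and 6.09 for all such genes. The fold and -log10 p divide the summit by the reads around it, and around these genes those were many. Over the 10 kb around the promoter summit, the members' median stood at percentiles of 83.1, 94.7, 78.8 and 85.0 among genes with a promoter peak in limb EGFP+, limb EGFP-, trunk EGFP+ and trunk EGFP- cells. Summit reads alone placed them at percentiles of 39.9, 65.3, 36.9 and 49.6. The members' median thus stood higher by 10 kb reads than by summit reads in every list. Single members departed from it, since Col6a2 and Col5a2 stood at percentiles of 26.6 and 42.3 by 10 kb reads in limb EGFP+ cells, and Col14a1 stood at 27.01 and 25.79 in trunk EGFP+ and EGFP- cells.

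**Figure D1:**
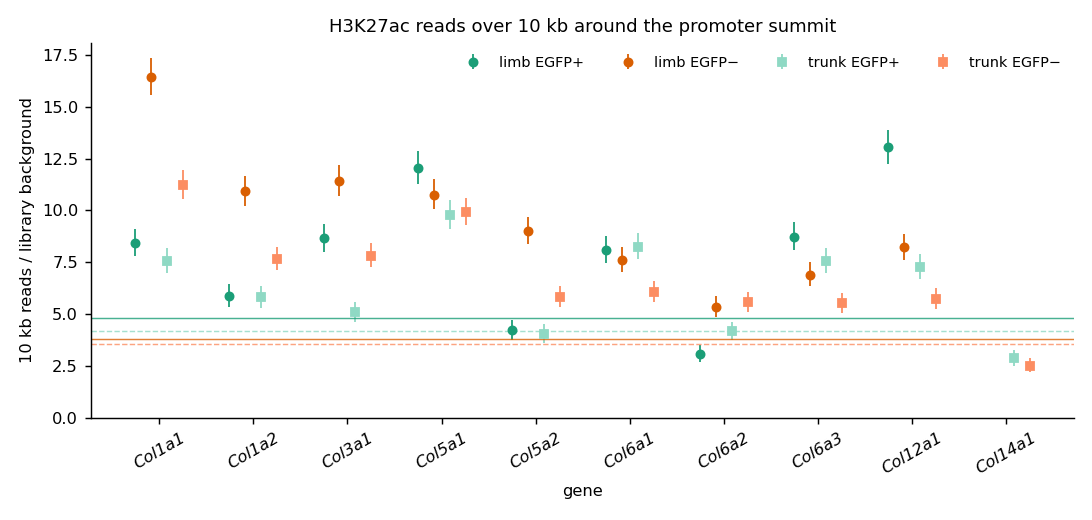
Depth-scaled H3K27ac reads over the 10 kb around the promoter summit (y axis, reads per 200 bp divided by the library background) for each member (x axis) in the 4 populations; bars are 95% Poisson intervals and horizontal lines the medians of all genes with a promoter peak (solid limb, dashed trunk). Limb EGFP- cells lie highest at Col1a1 (16.4), Col1a2 (10.9) and Col3a1 (11.4), whereas limb EGFP+ cells lie highest at Col12a1 (13.1).

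Col1a1 held the most reads over 10 kb, scaled to depth, of any member in both EGFP- libraries. At Col1a1 (chr11:94827050-94843868, + strand), which encodes the α1 chain, the summit lay +0.261 kb from the start in limb EGFP+ cells and held 60 reads (95% Poisson interval 45.8 to 77.2), against 78 (61.7 to 97.3) in limb EGFP-, 42 (30.3 to 56.8) in trunk EGFP+ and 50 (37.1 to 65.9) in trunk EGFP- cells. The 10 kb around a promoter summit held 630, 1340, 608 and 1029 reads in the same order. The 1340 reads of limb EGFP- cells lay around a further promoter summit, at -2.156 kb with 72 reads. Depth-scaled, the 10 kb ratio of EGFP- to EGFP+ cells was 1.95 (95% interval 1.77 to 2.14) in limbs and 1.48 (1.34 to 1.64) in trunks, while the summit ratios, 1.19 (0.839 to 1.70) and 1.04 (0.677 to 1.61), had intervals that include 1. The rank by -log10 p ran the other way, with percentiles of 73.8 and 68.6 in limb EGFP+ and EGFP- cells and of 57.2 and 39.6 in trunk EGFP+ and EGFP- cells. In EGFP- cells Col1a1 stood at percentiles of 99.7 (limb) and 99.2 (trunk) of all marked genes by 10 kb reads.

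Col1a2 (chr6:4504814-4541555, + strand), encoding the α2 chain of the same triple helix, had summits of 61, 82, 52 and 56 reads in limb EGFP+, limb EGFP-, trunk EGFP+ and trunk EGFP- cells and 439, 890, 466 and 702 reads over 10 kb. Its 10 kb ratio was 1.86 (1.65 to 2.09) in limbs and 1.32 (1.17 to 1.48) in trunks, close to that of Col1a1. It had the highest promoter percentile of any member in limb EGFP+ (82.9), limb EGFP- (84.8) and trunk EGFP+ cells (79.5), and stood at 70.5 in trunk EGFP- cells.

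Col3a1 (chr1:45350698-45395840, + strand) encodes the only chain of type III collagen. Its summits held 48, 75, 43 and 56 reads in the order used above, and its 10 kb held 646, 932, 407 and 717. The 10 kb ratio of EGFP- to EGFP+ cells was 1.32 (1.19 to 1.46) in limbs and 1.54 (1.36 to 1.74) in trunks. Its promoter intervals covered 709 and 512 bp in limb and trunk EGFP+ cells but 1475 and 1258 bp in limb and trunk EGFP- cells. Each EGFP+ list held a further interval just past the promoter interval, of 466 bp in limbs and 342 bp in trunks, counted as distal. Within 5 kb of the start, intervals covered 1949 and 1161 bp in limb and trunk EGFP+ cells. In limb and trunk EGFP- cells they covered 2110 and 1543 bp there.

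The chains of type V collagen did not follow each other. At Col5a2 (chr1:45412554-45542442, - strand) the summits held 35 reads in limb EGFP+, 68 in limb EGFP-, 30 in trunk EGFP+ and 56 in trunk EGFP- cells, so both EGFP- libraries were above both EGFP+ libraries. The summit ratio was 1.78 (1.17 to 2.76) in limbs and 1.63 (1.03 to 2.64) in trunks, and Col5a2 was the one member whose summit interval lay above 1 in either tissue. Its 10 kb ratio was 2.14 (1.87 to 2.45) in limbs, the highest of any member, and 1.44 (1.25 to 1.65) in trunks, and its percentile was higher in EGFP- cells in both tissues (80.3 against 64.5 in limbs, 79.1 against 58.3 in trunks). At Col5a1 (chr2:27776397-27929526, + strand) the summits held 74, 62, 61 and 55 reads and the 10 kb ratio was 0.892 (0.812 to 0.980) in limbs and 1.01 (0.921 to 1.12) in trunks. Col5a1 nevertheless had dense acetylation in every list, with 877 to 911 reads over 10 kb in limb EGFP+, limb EGFP- and trunk EGFP- cells, and 786 reads in the trunk EGFP+ library. An interval of limb EGFP- cells at +1.05 kb, with 67 reads, began just beyond the promoter window and was counted as distal, so that the promoter bases counted for that list were 547 bp against 1841 bp in limb EGFP+ cells.

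**Figure D2:**
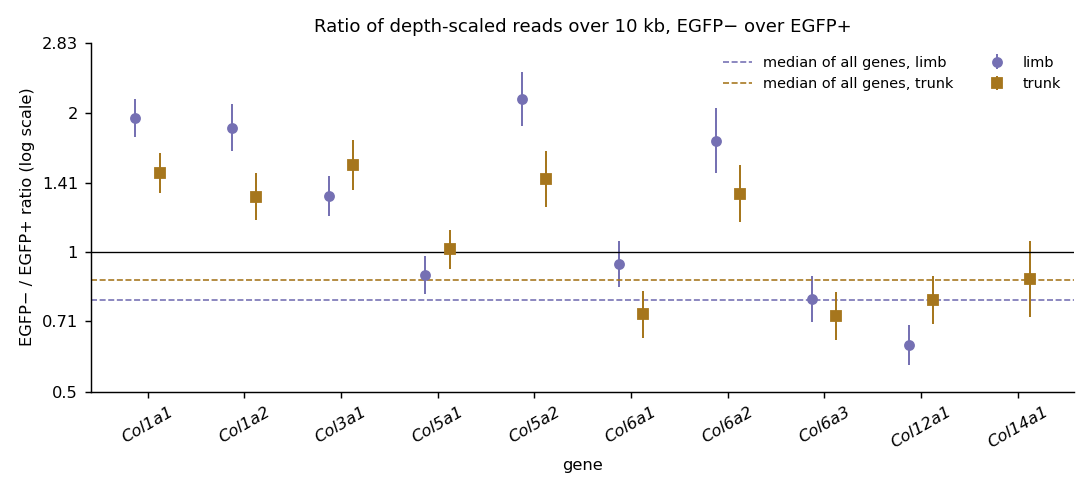
Ratio of depth-scaled reads over 10 kb around the promoter summit, EGFP- over EGFP+ (y axis, log scale), for each member (x axis) in limbs (circles) and trunks (squares); bars are 95% counting intervals and dashed lines the medians over all genes with a promoter peak in both lists of the tissue. Col1a1, Col1a2, Col3a1, Col5a2 and Col6a2 lie above 1 in both tissues, and Col6a1, Col6a3 and Col12a1 lie below 1 in both.

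Type VI collagen is a trimer of chains encoded by Col6a1, Col6a2 and Col6a3, and its genes were split too. Col6a2 (chr10:76429660-76459549, - strand) had 229 reads over 10 kb in limb EGFP+ cells, 435 in limb EGFP-, 334 in trunk EGFP+ and 510 in trunk EGFP- cells, a ratio of 1.74 (1.48 to 2.05) in limbs and 1.34 (1.16 to 1.54) in trunks. Its summits held 45, 53, 42 and 46 reads and differed by less than their counting error, with ratios of 1.08 (0.711 to 1.64) and 0.958 (0.617 to 1.49). Col6a1 (chr10:76543440-76562283, - strand), the upstream neighbour, had 603, 621, 662 and 555 reads over 10 kb and ratios of 0.943 (0.841 to 1.06) and 0.733 (0.654 to 0.822). Col6a3 (chr1:90693645-90771780, - strand) had 652, 563, 606 and 505 reads over 10 kb and ratios of 0.790 (0.705 to 0.886) and 0.729 (0.646 to 0.822). The ratio of Col6a3 was thus near the all-gene median in limbs and below it in trunks.

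Of the genes for fibril-surface collagens, Col12a1 had the lowest ratios in limbs and Col14a1 the weakest promoter. Col12a1 (chr9:79506268-79626135, - strand) had its highest summit in limb EGFP+ cells, with 66 reads against 44 in limb EGFP-, 45 in trunk EGFP+ and 37 in trunk EGFP- cells. Its limb ratios were 0.610 (0.407 to 0.907) at the summit and 0.631 (0.571 to 0.697) over 10 kb, lower than those of any other member and below the all-gene medians of 0.741 and 0.788. In trunks its 10 kb ratio was 0.789 (0.700 to 0.890). Col14a1 (chr15:55171140-55384199, + strand) had trunk summits of 21 reads (EGFP+) and 18 reads (EGFP-), with 230 reads over 10 kb in both, and no interval at all within 5 kb of its start in either limb list.

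**Figure D3:**
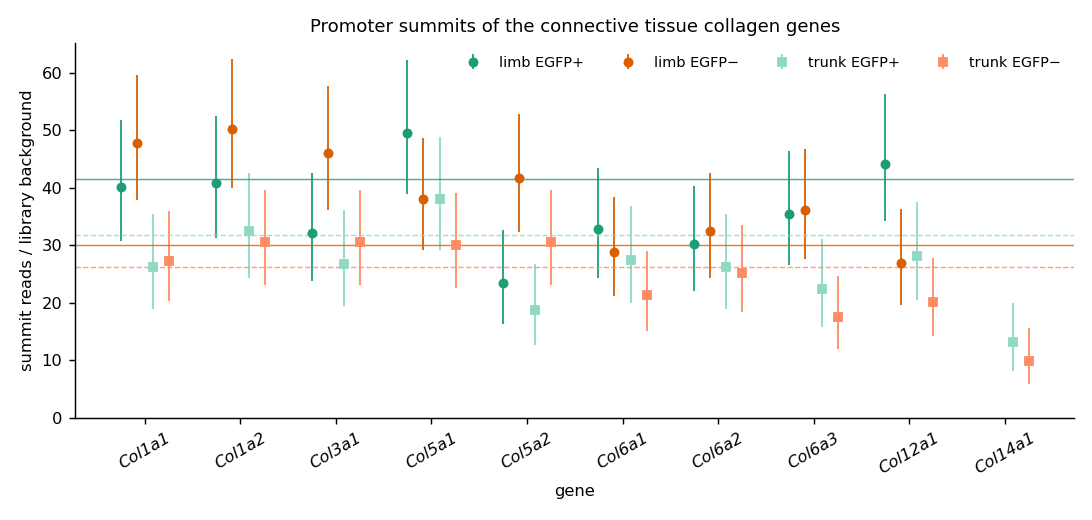
Depth-scaled reads at the highest promoter summit (y axis, reads divided by the library background) of each member (x axis) in the 4 populations; bars are 95% Poisson intervals and lines the medians of all genes with a promoter peak (solid limb, dashed trunk). The bars of EGFP+ and EGFP- cells of 1 tissue overlap at every member where both are drawn, and Col5a2 has the highest EGFP- to EGFP+ ratio in both tissues.

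Counted over the members, 6 of the 9 with a promoter peak in both limb lists had a higher depth-scaled summit in EGFP- cells, and 13.0% of all such genes did. In trunks the count was 3 of 10, against 23.1%. A 10 kb ratio of at least 1.5 was reached by 4 of 9 in limbs (Col1a1, Col1a2, Col5a2 and Col6a2) and by 1 of 10 in trunks (Col3a1), where 1.63% and 2.08% of all genes reached it. The percentile of -log10 p was higher in EGFP- cells for 5 of 9 members in limbs and for 1 of 10 in trunks (Col5a2), against 37.0% and 40.3% of genes, and the promoter intervals covered more bases in EGFP- cells for 5 of 9 and 4 of 10, against 23.5% and 36.0%. The counts of percentiles turned with the ranking, being 2 of 9 in limbs and 3 of 10 in trunks when intervals were ranked by fold, and 7 of 9 and 5 of 10 when they were ranked by summit reads. For the limb against the trunk, which cannot be told apart from the lane, the median 10 kb ratio of the members was 1.43 in EGFP- cells and 1.11 in EGFP+ cells, where the median gene gave 1.06 and 1.177.

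The genes most like the members in promoter percentiles, by Euclidean distance of the 4 values to the members' medians, were Tsc22d2 (distance 2.49), Usp29 (3.41), Nav2 (4.99), Gli3 (5.82) and Fam174c (6.33). Among 20 partners of the collagens in the matrix, 14 had a promoter peak in all 4 lists, and the median 10 kb ratio was 0.985 over 16 genes in limbs and 0.801 over 14 in trunks. Lox, which crosslinks collagen chains, had ratios of 2.05 in limbs and 1.35 in trunks, Thbs2 had 1.49 and 1.35, and Serpinh1, the collagen chaperone, had 0.667 and 0.672. The cartilage collagens stood far from the members, with a median ratio of 0.191 over 3 genes in limbs and 0.194 over 3 in trunks. These were Col2a1, Col11a1 and Col27a1 in limbs and Col9a2, Col11a1 and Col27a1 in trunks. The cells were sorted by a sensor at Col2a1, so the ratio of Col2a1 is not independent of the sort. Of 26 other collagen genes 7 had a promoter peak in all 4 lists and 11 had none in any. Their median ratio was 0.768 over 7 genes in limbs and 1.27 over 10 in trunks. For the members it was 1.32 over 9 genes in limbs and 1.17 over 10 in trunks. The medians of the other collagens count Col4a1 and Col4a2 separately, and in trunks also Col4a5 and Col4a6. Each of these pairs shares its promoter intervals, so no order of the medians is read from the trunk values. The basement membrane genes Col4a1 and Col4a2, which lie head to head and share their promoter intervals, had ratios of 1.72 in limbs and 1.56 in trunks.

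Distal acetylation was dense around most of these genes. The 8 loci held 64 distal intervals in limb EGFP+ cells, 93 in limb EGFP-, 62 in trunk EGFP+ and 69 in trunk EGFP- cells. The median member had 8, 9.5, 7 and 7 in its window, where the median protein-coding gene, with or without a promoter peak, had 1 in each list. Intervals in overlapping windows count for both genes there. Col12a1 had 2, 3, 1 and 3 in the same order, and Col3a1 had 3, 7, 2 and 2. Of the distal intervals of the 8 loci, 26, 52, 33 and 39 overlapped nothing in the other fraction of their tissue, which is 40.6%, 55.9%, 53.2% and 56.5%. Of all distal intervals, 68.5% in limb EGFP+, 56.6% in limb EGFP-, 69.1% in trunk EGFP+ and 57.3% in trunk EGFP- cells had none. The EGFP- intervals of the collagen loci were thus unmatched about as often as elsewhere. For the EGFP+ intervals these shares were below those of all distal intervals. Their exact 95% binomial intervals were 28.5% to 53.6% in limbs and 40.1% to 66.0% in trunks. They count each peak as independent, although the peaks cluster in 8 loci of 1 library, so they are no test. In every list the distal intervals of the loci also ranked higher than all distal intervals. Their median percentiles were 40.8 (limb EGFP+), 40.1 (limb EGFP-), 35.2 (trunk EGFP+) and 37.2 (trunk EGFP-), against 32.8, 31.2, 31.7 and 28.8. Whether rank bears on the unmatched shares was not tested.

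Merged where they overlapped, the distal intervals made 133 regions, and a list counted as marking a region where any of its intervals, promoter intervals included, overlapped it. All 4 lists marked 22 of them (16.5%), both EGFP- lists and no EGFP+ list marked 18 (13.5%), and both EGFP+ lists and no EGFP- list marked 10 (7.52%). Among all 43885 distal regions of the genome these shares were 10.3%, 4.58% and 10.8%. With the regions of single lists added, 57 regions had no EGFP+ interval and 34 no EGFP- interval, whereas across the genome 13604 had no EGFP+ interval and 20285 no EGFP- interval. An absent interval means that the authors' caller found none there, since the reads at such a place are not listed. Of the 57, 45 were more than 1 kb from any EGFP+ interval, and of the 34, 24 were that far from any EGFP- interval. Regions marked in all 4 lists had a median highest -log10 p of 18.2, against 9.94 for those of both EGFP- lists and 9.43 for those of both EGFP+ lists. This order is partly built in, since the highest value is taken over more lists and the region must be called in each.

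**Figure D4:**
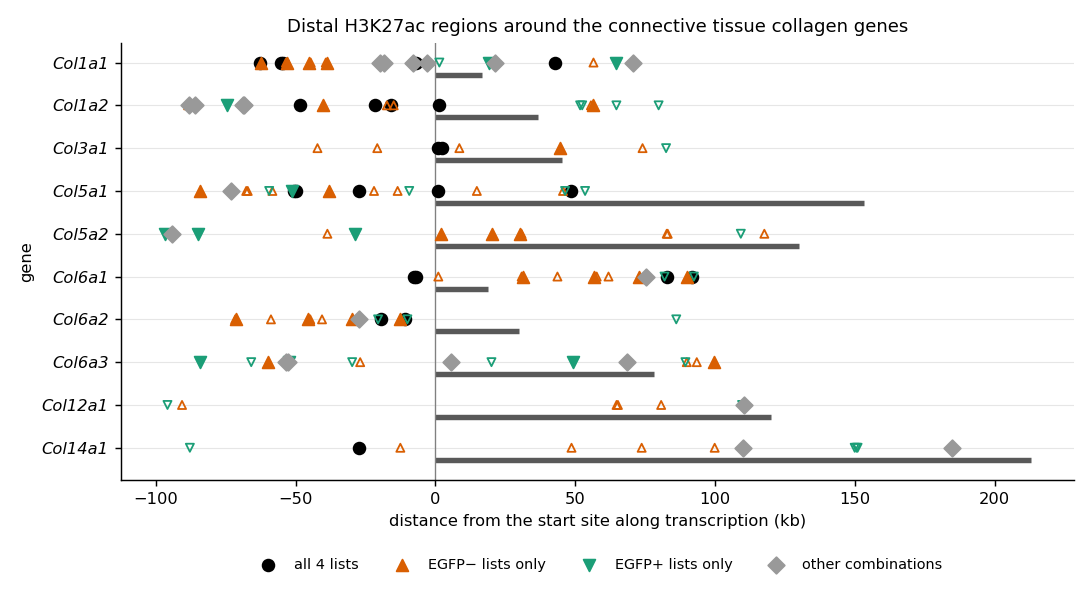
Distal H3K27ac regions of each member (y axis) by distance from its start site along the direction of transcription (x axis, kb). Filled marks are regions found in at least 2 lists, small open marks regions found in 1 list, and grey bars the gene bodies. The 4 filled EGFP- marks of Col1a1 all lie upstream, whereas its 2 filled EGFP+ marks lie downstream.

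The sequences around the summits of 7 distal regions are shown because they are the strongest region of a locus or the strongest one of a single fraction. Each is 201 bases of GRCm39, + strand, centred on the summit of the list with the highest -log10 p, named by its distance from the start site, with the same motifs in capitals. None overlaps an exon of a protein-coding gene.
Col1a1 -54.6 kb (chr11:94772377-94772577, + strand): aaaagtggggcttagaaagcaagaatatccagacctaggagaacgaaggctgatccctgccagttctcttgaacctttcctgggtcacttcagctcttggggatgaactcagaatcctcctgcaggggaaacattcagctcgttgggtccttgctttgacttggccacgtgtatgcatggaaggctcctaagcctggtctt
Col1a1 -53.1 kb (chr11:94773882-94774082, + strand): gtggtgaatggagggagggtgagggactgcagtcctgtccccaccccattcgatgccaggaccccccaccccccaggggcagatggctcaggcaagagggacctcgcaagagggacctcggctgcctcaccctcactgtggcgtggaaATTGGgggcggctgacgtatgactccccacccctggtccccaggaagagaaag
Col1a1 +19.3 kb (chr11:94846288-94846488, + strand): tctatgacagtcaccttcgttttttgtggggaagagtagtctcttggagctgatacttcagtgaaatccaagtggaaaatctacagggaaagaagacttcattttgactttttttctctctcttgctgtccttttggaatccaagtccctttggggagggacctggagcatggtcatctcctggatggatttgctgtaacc
Col5a1 -50.4 kb (chr2:27725907-27726107, + strand): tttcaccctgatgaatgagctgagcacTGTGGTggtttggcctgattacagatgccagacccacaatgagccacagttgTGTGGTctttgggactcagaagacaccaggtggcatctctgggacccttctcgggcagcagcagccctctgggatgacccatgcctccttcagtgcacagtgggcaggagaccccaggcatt
Col5a1 -38.0 kb (chr2:27738291-27738491, + strand): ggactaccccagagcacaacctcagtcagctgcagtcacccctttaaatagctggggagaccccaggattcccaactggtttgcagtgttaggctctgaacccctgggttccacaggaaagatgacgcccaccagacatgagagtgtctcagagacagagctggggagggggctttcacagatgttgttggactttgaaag
Col6a2 -19.6 kb (chr10:76479033-76479233, + strand): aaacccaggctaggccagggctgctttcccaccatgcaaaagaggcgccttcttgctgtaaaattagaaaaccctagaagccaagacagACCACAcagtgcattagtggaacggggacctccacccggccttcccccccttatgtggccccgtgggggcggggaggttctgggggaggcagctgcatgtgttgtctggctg
Col6a2 -71.2 kb (chr10:76530646-76530846, + strand): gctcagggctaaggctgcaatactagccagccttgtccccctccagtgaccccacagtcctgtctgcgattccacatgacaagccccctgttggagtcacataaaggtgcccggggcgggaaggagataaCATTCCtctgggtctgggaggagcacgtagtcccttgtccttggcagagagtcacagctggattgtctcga
The -50.4 kb region of Col5a1 held TGTGGT at 2 places and the -19.6 kb region of Col6a2 held it at 1 place (as ACCACA). The -71.2 kb region of Col6a2 held GGAATG (as CATTCC) and the -53.1 kb region of Col1a1 held CCAAT (as ATTGG). Over all 133 regions of the collagen loci, the 201 bases held TGANTCA in 9.77%, ACAAAG in 22.6%, GGAATG in 12.8% and TGTGGT in 11.3%, and over all 43885 distal regions in 5.28%, 17.9%, 12.3% and 14.3%. These counts describe letters in a window and say nothing of a factor bound there.

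The Col1a1 locus held the strongest distal region of any member. At -54.6 kb the summit had 60 reads in limb EGFP+ cells, 102 in limb EGFP-, 40 in trunk EGFP+ and 62 in trunk EGFP- cells, with -log10 p of 26.6, 44.5, 16.9 and 22.0, so it was marked in all 4 populations and each EGFP- library read higher than its EGFP+ partner. Both EGFP- lists and no EGFP+ list marked 4 regions upstream of Col1a1, at -62.3, -53.1, -45.1 and -38.6 kb. The strongest of these, at -53.1 kb, had 42 reads in limb and 53 in trunk EGFP- cells and lay 0.554 kb from an EGFP+ interval, so it bordered the region shared by all. That at -62.3 kb lay 0.147 kb from an EGFP+ interval, and those at -45.1 and -38.6 kb lay 8.34 and 14.8 kb from one. On the other side of the gene, at +19.3 kb and past its end, lay the strongest region of any member without an EGFP- interval. It had 63 reads in limb EGFP+ and 56 in trunk EGFP+ cells (-log10 p of 25.7 and 18.0). The nearest EGFP- interval was over 1 kb away. The nearest start site was that of H1f9, at 12.0 kb, and which gene the region serves was not tested.

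**Figure D5:**
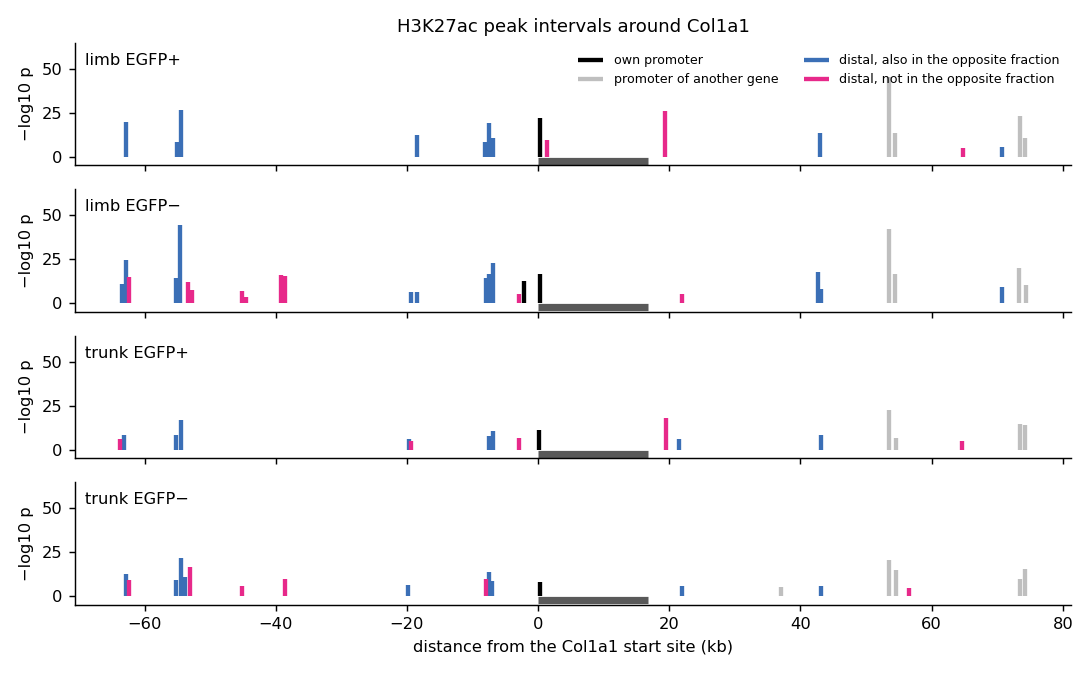
H3K27ac peak intervals around Col1a1 by distance of the summit from the start site (x axis, kb) in the 4 lists (rows), with the authors' -log10 p as height (y axis); the grey bar is the gene body and colours separate promoter intervals, distal intervals with and distal intervals without an overlapping interval of the opposite fraction. The interval at -54.6 kb stands in every row and that at +19.3 kb in the EGFP+ rows only.

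At Col1a2 the strongest distal region lay at -48.4 kb and was marked in all 4 lists, with 29, 53, 23 and 40 reads in limb EGFP+, limb EGFP-, trunk EGFP+ and trunk EGFP- cells. The strongest without an EGFP+ interval lay at +56.3 kb (19 reads in limb and 30 in trunk EGFP- cells), nearer to the start site of Casd1, at 38.9 kb. The strongest without an EGFP- interval lay at -74.5 kb (19 reads in limb and 14 in trunk EGFP+ cells). At -15.8 kb the 4 lists gave 15, 66, 35 and 43 reads, so limb EGFP+ cells were the lowest there.

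Col5a1 had 20 regions. Its strongest, at -50.4 kb, was nearly even across the populations, with 51, 56, 54 and 56 reads and depth-scaled heights of 34.2, 34.4, 33.7 and 30.5. Closer to the gene, at -38.0 kb, 43 reads in limb EGFP- and 33 in trunk EGFP- cells (-log10 p of 21.5 and 13.2) faced no EGFP+ interval within 9.44 kb, and this was the strongest region of any member without an EGFP+ interval. The strongest without an EGFP- interval, at -9.34 kb, was found in limb EGFP+ cells (25 reads) and not in trunk EGFP+ cells.

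Col3a1 had 8 distal regions and Col5a2, which lies tail to tail with it, had 14, none of them in all 4 lists. In the introns of Col5a2, both EGFP- lists and no EGFP+ list marked regions at +2.02, +20.1 and +30.1 kb, of 10 to 34 reads, the first of which lay 0.368 kb from an EGFP+ interval. Before its start, at -28.9 kb, 11 reads in limb EGFP+ and 21 in trunk EGFP+ cells made the strongest distal region of the gene, with no EGFP- interval within 9.34 kb. The strongest region of Col3a1, at +2.36 kb in an intron, was in all 4 lists with 56, 51, 27 and 38 reads. Its strongest without an EGFP+ interval, at +8.58 kb, had 29 reads in limb EGFP- cells, and its strongest without an EGFP- interval, at +82.5 kb within Col5a2, had 12 in limb EGFP+ cells.

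Between Col6a2 and Col6a1 lay a row of EGFP- regions. The strongest shared region, at -19.6 kb from Col6a2, had 44, 61, 35 and 35 reads, and a pair just before Col6a1, at -7.09 and -7.60 kb, had 52 to 67 reads in each list. Both EGFP- lists and no EGFP+ list marked 4 regions between the genes, at -71.2, -45.6, -29.8 and -12.6 kb of Col6a2, and neither gene had a region marked by both EGFP+ lists and no EGFP- list. The region at -71.2 kb (27 reads in limb and 19 in trunk EGFP- cells) was 30.4 kb from any EGFP+ interval, whereas that at -12.6 kb was 0.805 kb from one. The strongest regions without an EGFP- interval were in limb EGFP+ cells alone. That of Col6a1, at +92.4 kb, had 21 reads and lay 0.4 kb from an EGFP- interval. Its nearest start site was that of Col6a2, at 10.0 kb. The strongest such region of Col6a2, at +86.1 kb, had 12 reads and lay in an intron of Lss.

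Col6a3 had 16 distal regions, none in all 4 lists. Its strongest, at -52.8 kb, had 35 reads in limb EGFP+, 33 in limb EGFP- and 20 in trunk EGFP- cells. The start site nearest to that region was that of Mlph, at 18.2 kb. The strongest of Col6a3 without an EGFP- interval, at +20.1 kb, had 18 reads in limb EGFP+ cells. Both EGFP- lists and no EGFP+ list marked +99.7 kb (27 and 29 reads) and -59.8 kb (23 and 25 reads), and both EGFP+ lists and no EGFP- list marked +49.1 kb in an intron (22 and 20 reads), -52.4 kb (29 and 27 reads, 0.198 kb from an EGFP- interval) and -84.3 kb (13 and 14 reads), within the neighbour Mlph. Col12a1 had 7 regions of at most 22 reads, none of both EGFP- lists or of both EGFP+ lists alone. Its strongest, at +110.5 kb, had 17 reads in limb EGFP+, 22 in limb EGFP- and 13 in trunk EGFP- cells. A region at +80.8 kb was found in trunk EGFP- cells alone (12 reads) and one at +109.7 kb in trunk EGFP+ cells alone (13 reads, 0.35 kb from an EGFP- interval). Col14a1 had 11, of which -27.1 kb was in all 4 lists (20, 27, 19 and 11 reads). One at +48.7 kb was found in limb EGFP- cells alone (12 reads) and one at +149.96 kb in trunk EGFP+ cells alone (22 reads). Both limb lists thus held distal intervals around Col14a1 and none at its promoter.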

How the data were processed

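H3K27ac ChIP-seq libraries were analysed from 4 populations, 1 library each, grouped by the labels. According to the study's methods and the submitters' processing notes, the authors subsampled reads to equal numbers, trimmed with CutAdapt 1.18, aligned with Bowtie2 2.3.5.1 to GRCm39, filtered on mapping quality and called peaks with MACS2 2.2.7.1 on reads extended to 200 bp, with no control library named. The deposited lists give each summit a score (whole part of 10 times -log10 q), a fold (ratio of summit to local background), a -log10 p-value and a -log10 q-value. The peak names of the trunk EGFP- list carry another replicate number than its label, and the label was used. Read length is given in alternatives that are not assigned to libraries in the sources used here. The study's methods name a Bioruptor Pico for sonication, and the labels name a Covaris instrument as well.

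Rows sharing start and end were joined into intervals on 21 chromosomes, ranked within a list by -log10 p (percentile 100 is the strongest) and assigned to GENCODE M39 genes by an overlap of at least 1 bp. Reads k and background λ were solved from fold = (k + 1)/(λ + 1) and the Poisson tail, and λ above the library minimum was a whole number of reads over 10 kb in over 99.9% of summits. Wherever several intervals or summits lay in a promoter, the highest value of each measure was used. The 10 kb reads and the summit reads can thus come from different summits. The solver and interval search were tested on simulated data. Poisson, binomial and ratio intervals are exact, at 95%, and cover counting error only. Duplicate reads, mappability and antibody yield are not seen in them. The members and gene lists were chosen with earlier results of these data known. Named regions were, per gene, the one of highest -log10 p, the strongest without an EGFP+ interval and the strongest without an EGFP- interval. One such region is not reported here. Others named were chosen after their values were seen. Alternatives varied the peak threshold, list length, ranking, promoter and distal windows and overlap. Python 3, numpy, scipy and matplotlib were used.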

Additional observations from a re-analysis of the deposited data

Results flagged for a closer look

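At 6 members the EGFP- to EGFP+ difference pointed one way in limbs and the other way in trunks in at least 1 measure. Ratios are set against 1 here, and none of these differences was tested, since each population had 1 library. At Col1a2 the summit ratio was 1.23 in limbs and 0.942 in trunks, and the promoter percentile differed by 1.91 points in limbs and by -9.00 points in trunks. At Col3a1 the percentile differed by 18.5 points in limbs and by -1.79 points in trunks, although its 10 kb ratio was above 1 in both. At Col5a1 the 10 kb ratio was 0.892 in limbs and 1.01 in trunks. At Col6a1 the percentile differed by 0.917 points in limbs and by -3.42 points in trunks. At Col6a2 the summit ratio was 1.08 in limbs and 0.958 in trunks, both with intervals that include 1. At Col6a3 the summit ratio was 1.02 in limbs and 0.778 in trunks, and the percentile differed by 12.6 points in limbs and by -3.43 points in trunks. The summit intervals of Col1a2 and Col6a3 include 1 in both tissues as well. Set against the all-gene medians, the ratios named here for Col1a2, Col5a1 and Col6a2 were higher in both tissues. Those medians were 0.741 and 0.843 at summits and 0.788 and 0.869 over 10 kb, in limbs and trunks. Col6a3 was above the summit median in limbs and below it in trunks.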

How the results depend on the processing

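No paired analysis was possible because each population had 1 library and no result comes from a test. The promoter window of 1 kb on each side, the 5′-most start site alone, matching by 50% of the shorter interval and a 1 kb margin around opposite intervals moved no count or median beyond 1.5 times or the spread of the members. With a fold of at least 4, promoter peaks were found at 5, 4, 5 and 2 members in limb EGFP+, limb EGFP-, trunk EGFP+ and trunk EGFP- cells, distal intervals numbered 25, 21, 12 and 11 and unmatched ones 15, 11, 10 and 9, the median percentile was 57.7 in limb EGFP+ and 50.2 in trunk EGFP+ cells, more bases in EGFP- cells were covered at 3 members in limbs and 1 in trunks, and the limb count of higher percentiles was 3. With -log10 q of at least 5, distal intervals numbered 41, 49, 27 and 34, unmatched ones 14, 22, 12 and 15, and the median percentile was 52.9, 37.6 and 32.9 in limb EGFP+, trunk EGFP+ and trunk EGFP- cells. With the 20000 strongest intervals of each list, these were 23, 43, 21 and 37, then 8, 27, 10 and 22, and 36.1, 64.2, 29.6 and 35.3 for the medians, with more bases in EGFP- cells at 8 members in limbs and a higher percentile at 4 in trunks. Under each of these settings of -log10 q and list length, 9 members had a promoter peak in trunk EGFP- cells. Ranking by fold gave medians of 45.1, 39.9, 43.6 and 25.4 and higher EGFP- percentiles at 2 members in limbs and 3 in trunks. Windows of 50 kb gave 39 and 41 distal intervals and 12 and 16 unmatched ones in limb and trunk EGFP+ cells, and windows of 200 kb gave 42 unmatched ones in limb EGFP+ cells. Ranking by summit reads, an alternative chosen after seeing the data, gave medians of 87.8 in limb and 78.4 in trunk EGFP- cells and a higher EGFP- percentile at 5 members in trunks. The bases covered within 5 kb of the start site, also chosen after seeing the data, moved neither count. The settings of fold, -log10 q and list length leave fewer intervals by construction, and the smaller windows fewer bases. The cause of the other changes was not tested. A place with fewer than the 7 reads of the weakest summit cannot appear in most lists, so absence of an interval is a limit of calling and not a count of 0.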
